A study of Caenorhabditis elegans with 2 samples.

Results

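The 10 genes described here act in the Wnt pathway of Caenorhabditis elegans: the ligand genes egl-20, lin-44 and mom-2, the Dishevelled gene mig-5, the APC gene apr-1, the beta-catenin genes bar-1, wrm-1 and sys-1, the TCF gene pop-1 and the kinase gene lit-1. They were chosen by name, and they are 10 of 19973 protein-coding genes on the nuclear chromosomes. For each gene, every peak was taken whose summit lay between 2000 bp before the gene start and the 3' end of the gene, which is called its window below. The peaks come from a chromatin immunoprecipitation of DIE-1, a zinc finger transcription factor needed for epidermal morphogenesis and for the asymmetry of the ASE taste neurons. Per the labels, the worms of strain RW10316 stably expressed DIE-1 with GFP and FLAG at its C-terminus, and whole hermaphrodite young adults were taken 64 hours after synchronization of starved L1 larvae. The single group held 2 biological replicates, precipitated with an antibody to GFP per the description, while the antibody field names die-1. No group without the fusion protein was analysed here, and chromatin of the whole worm does not tell which tissue a peak comes from.

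Wnt ligands are secreted proteins that bind Frizzled receptors, which pass the signal on through Dishevelled. Without signal, a complex with Axin, APC and kinases marks beta-catenin for destruction, and with signal beta-catenin reaches the nucleus and turns the DNA-binding protein TCF into an activator. C. elegans has in addition an asymmetry branch, in which WRM-1 and the kinase LIT-1 lower nuclear POP-1 in one daughter of a dividing cell while SYS-1 acts as its co-activator. This branch sets the fates of seam cells and of many other daughter pairs, and DIE-1 is itself known from the epidermis.

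Reproducible DIE-1 peaks lay in the windows of 4 of the 10 genes: pop-1, lit-1, mig-5 and lin-44. The authors' signal, a value whose scale the labels and files do not state, was 103.0 at pop-1, 97.8 and 83.1 at lit-1, 96.2 at mig-5 and 81.3 at lin-44. All 5 values lay below the median of nuclear reproducible peaks, 114.9. None of the 5 lay at a short RNA gene, and of the 862 reproducible summits away from such genes the median was 99.7, which pop-1 exceeded and the other 4 did not. The ligands egl-20 and mom-2, the APC gene and all 3 beta-catenin genes had only weaker peaks, between 19.6 and 58.8. A reproducible summit lay in 4 of 10 windows here and in 6.88% of the windows of all protein-coding genes. The 10 genes were named with earlier results of these data known, among them the peaks of lit-1 and mig-5, so the count describes these genes and is no measure of the pathway. The count was 2 with gene bodies only (lit-1 and lin-44), against 2.75% of all genes, and 0 in the stronger 50% of the reproducible list, against 3.24%. It was 2 when as many of the strongest peaks of replicate 2 alone were taken (lit-1 and pop-1), against 6.77%.

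The DNA under the peaks of lit-1, mig-5, bar-1, mom-2 and wrm-1 is shown so that the summits can be placed in the sequence. For bar-1, mom-2 and wrm-1 the pooled peak nearest the gene start was taken, which at mom-2 was not the strongest. Each stretch is part of a peak, written along the gene's own strand from the RefSeq genome of WBcel235, the assembly also called ce11, and leaves out untranslated bases of the annotated transcripts. Capitals mark matches, on either strand, to the core of a TCF site (CTTTGAT), to a GATA factor site (TGATAAG), to GAGAGA or to the B box of tRNA genes. The first lit-1 stretch is chrIII:13719209-13719395 on the plus strand, it ends at the last base before the start of transcript W06F12.1c.1, and the summit lies 32 bp further on.
lit-1 transcript start: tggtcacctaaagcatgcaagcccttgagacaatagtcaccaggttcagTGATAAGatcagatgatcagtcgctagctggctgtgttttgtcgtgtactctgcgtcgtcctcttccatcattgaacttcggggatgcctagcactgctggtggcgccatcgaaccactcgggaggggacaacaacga
The second lit-1 stretch is chrIII:13721217-13721417 on the plus strand, inside an intron, with the summit at its middle base.
lit-1 intron: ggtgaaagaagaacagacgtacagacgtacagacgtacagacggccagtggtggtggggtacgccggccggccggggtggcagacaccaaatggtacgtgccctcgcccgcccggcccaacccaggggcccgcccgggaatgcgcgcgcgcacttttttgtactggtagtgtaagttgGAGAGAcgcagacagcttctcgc
The mig-5 stretch is chrII:8185094-8185294 on the minus strand, between mig-5 and the start of cct-1, with the summit at its middle base.
mig-5: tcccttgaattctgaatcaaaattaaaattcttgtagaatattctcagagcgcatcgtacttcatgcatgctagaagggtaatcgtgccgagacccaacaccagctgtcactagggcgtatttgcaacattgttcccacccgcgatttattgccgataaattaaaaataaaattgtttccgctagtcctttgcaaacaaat
The bar-1 stretch is chrX:7170626-7170826 on the minus strand, with the summit at base 196, and it ends where the annotated gene begins.
bar-1: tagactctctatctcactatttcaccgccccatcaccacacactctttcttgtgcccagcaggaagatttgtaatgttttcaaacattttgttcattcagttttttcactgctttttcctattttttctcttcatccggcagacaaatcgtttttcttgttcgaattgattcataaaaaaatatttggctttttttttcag
The mom-2 stretch is chrV:8355787-8355987 on the plus strand, with the summit at base 193, and it too ends where the annotated gene begins.
mom-2: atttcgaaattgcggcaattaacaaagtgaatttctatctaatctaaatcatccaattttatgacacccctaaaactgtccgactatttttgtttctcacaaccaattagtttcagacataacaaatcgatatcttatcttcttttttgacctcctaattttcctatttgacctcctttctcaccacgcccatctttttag
The wrm-1 stretch is chrIII:5720761-5720961 on the plus strand, near the far edge of the window, with the summit at its middle base.
wrm-1: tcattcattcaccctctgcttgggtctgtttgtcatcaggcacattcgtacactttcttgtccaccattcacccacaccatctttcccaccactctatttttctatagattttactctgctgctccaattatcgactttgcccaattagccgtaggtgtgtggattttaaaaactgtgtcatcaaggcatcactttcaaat
No stretch held the TCF core or the B box, the first lit-1 stretch held the GATA letters at base 50, and the lit-1 intron held GAGAGA at base 179. Both matches lay more than 50 bases from the summit, so they are not in the motif counts given below. The intron stretch also carried the unit acagacgt 3 times in a row, and 63.7% of its bases were G or C.

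**Figure D1:**
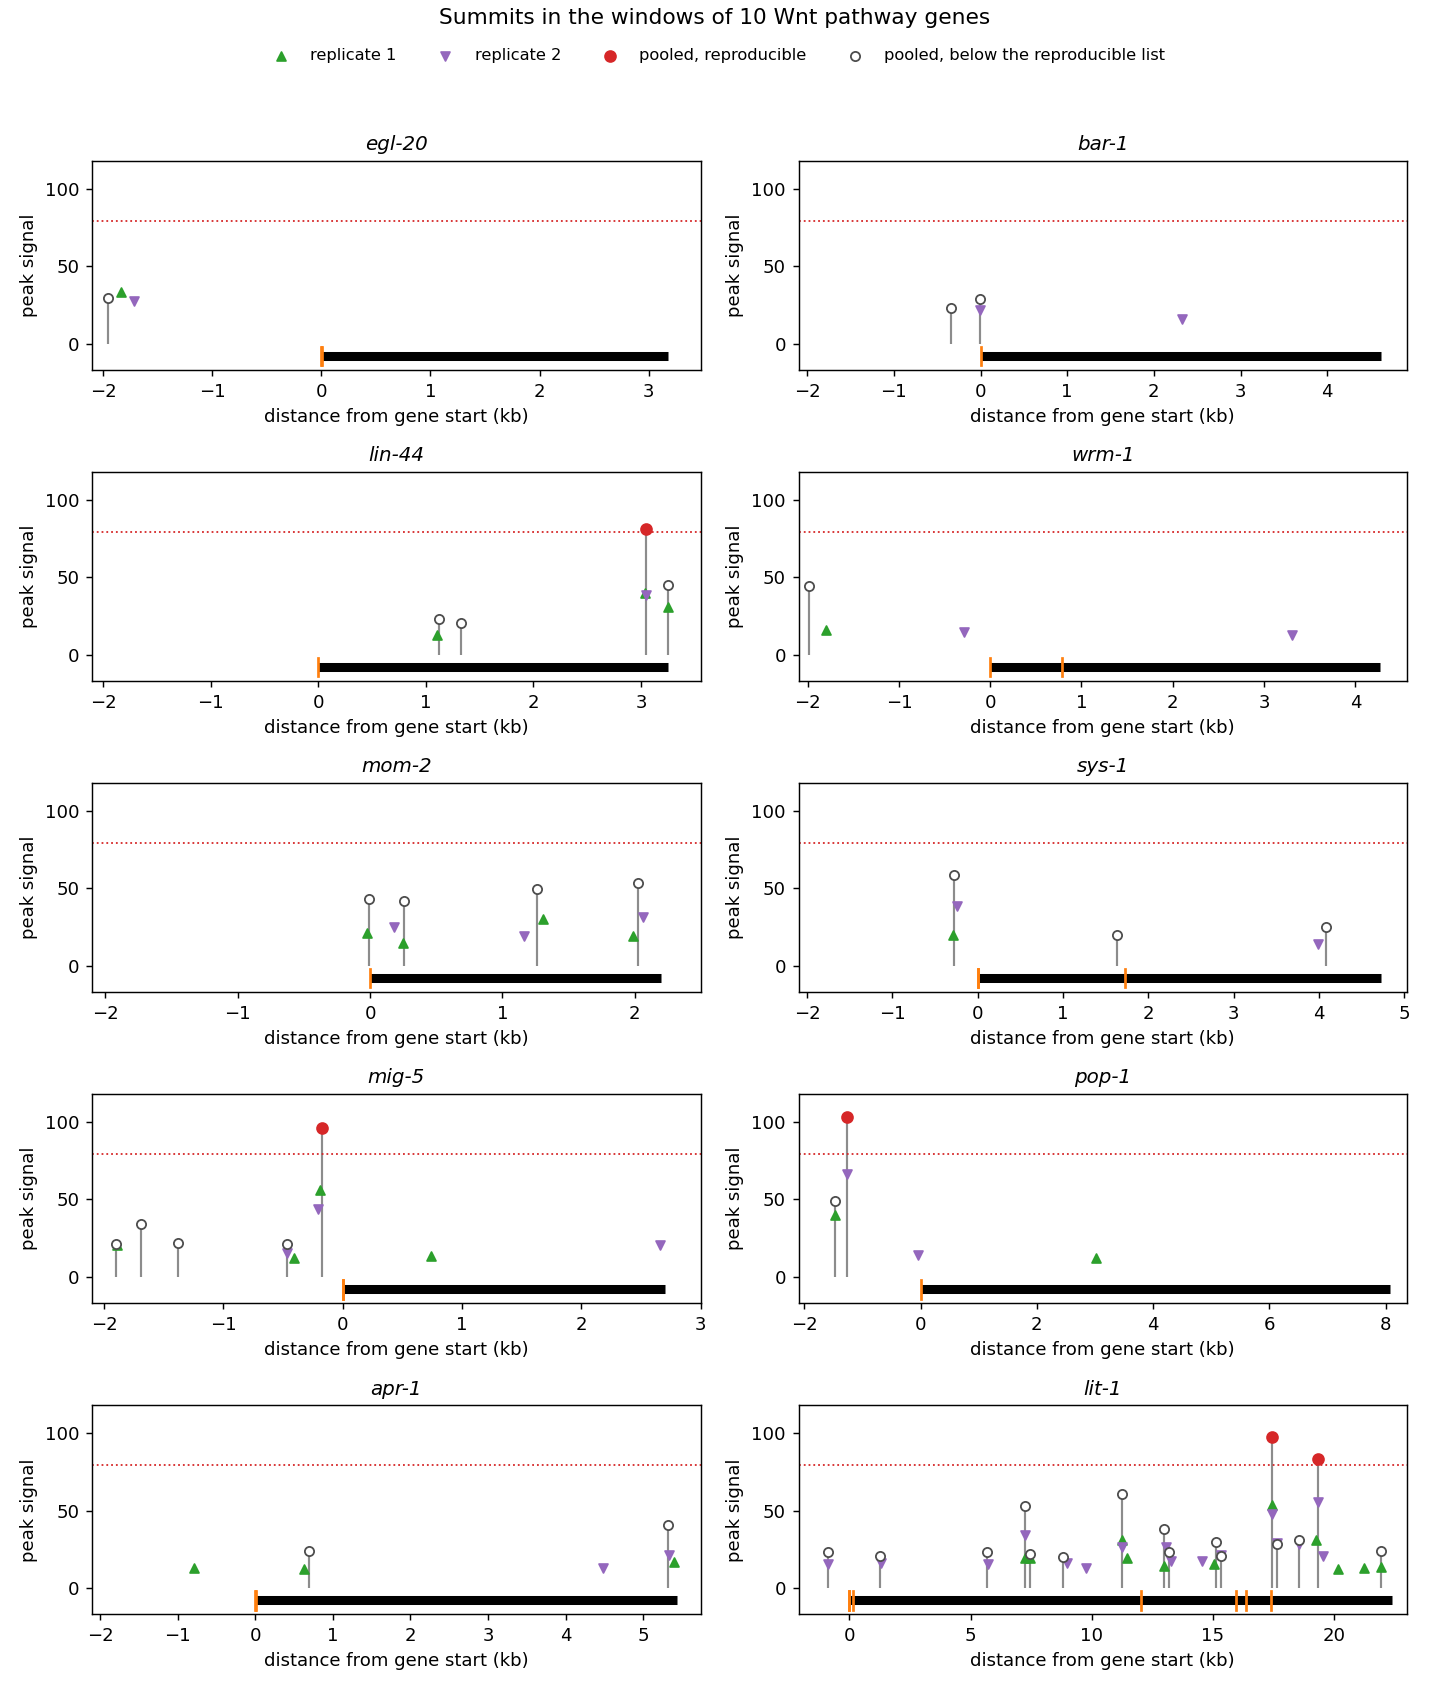
Signal of each peak (vertical axis, the authors' value) against the distance of its summit from the gene start in kb (horizontal axis) for the 10 genes, with stems for pooled peaks, red where they are in the reproducible list, and triangles for the replicate lists. Black bars are gene bodies, orange ticks are transcript starts and the dotted line is the lowest reproducible signal, 79.4; the red points of lit-1 lie 17436 and 19326 bp from the gene start, past its last transcript start, and that of lin-44 at the end of the gene.

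The 3 ligand genes differed in where their peaks lay. At lin-44, which codes for a Wnt of the tail epidermis that orients the T cells (chromosome I, 4126056 to 4129310, plus strand), the reproducible summit lay in the 3' UTR, 3051 bp after the gene start. Its signal was 81.3 (rank 1373 of 1432) in the reproducible list. It was 39.6 in replicate 1 (rank 1327 of 23789) and 38.4 in replicate 2 (rank 2358 of 29268). The 2 values were close, but the peak ranked lower in replicate 2. A summit of 44.8 (30.5 in replicate 1, none within 200 bp in replicate 2) lay at the very end of the gene, and 2 summits of 22.9 and 20.3 lay in coding exons. The start of lin-44 had no summit in the pooled list, and the lists of both replicates had none there either.

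In the window of mom-2 there were 4 pooled peaks, spread over the gene. mom-2 codes for the ligand that polarizes the EMS cell of the early embryo (chromosome V, 8355988 to 8358185, plus strand), and none of its peaks was reproducible. The pooled signal was 43.1 at the gene start (-9 bp), 41.6 in an intron (256 bp), 49.6 in a coding exon (1260 bp) and 53.5 in the 3' UTR (2027 bp). At the 3' UTR summit the signal was 19.1 in replicate 1 and 31.2 in replicate 2, and at the start it was 21.2 and 25.1. The replicate 2 summit of 25.1 lay inside the gene, 193 bp from the pooled start summit, and was also the one nearest the intron summit. The 4 pooled values differed little, and no summit stood out.

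At egl-20, the Wnt that guides the migration of the Q neuroblasts (chromosome IV, 9812357 to 9815532, minus strand), no list had a summit inside the gene. The one pooled summit, 29.2, lay 1956 bp upstream and 76 bp inside the neighbour catp-6, which codes for a cation-transporting ATPase. The replicate summits lay between egl-20 and catp-6, with a signal of 33.5 at -1840 bp in replicate 1 (rank 1936 of 23789) and 27.2 at -1721 bp in replicate 2 (rank 5875 of 29268). These lay 119 bp from each other. The pooled value was 0.48 times their sum. The replicate 2 summit lay more than 200 bp from the pooled one, so this ratio has no direct counterpart among the summits with both replicates within 200 bp, where it ran from 0.41 to 1.08 at the 10 genes and from 0.14 to 1.76 over all 11440.

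mig-5 codes for a Dishevelled protein (chromosome II, 8182323 to 8185023, minus strand). Its peak lay between the annotated starts of mig-5 and of cct-1, the gene of a chaperonin subunit. The signal was 96.2 in the pooled reads (rank 988), 55.9 in replicate 1 (rank 620) and 44.0 in replicate 2 (rank 1731). The summit lay 171 bp before mig-5 and 249 bp before cct-1, in the 419 bp between the divergent starts, and the replicate summits lay 15 and 32 bp from it. The other 4 pooled summits of the window, from 21.1 to 34.0, lay inside cct-1, and the body of mig-5 held no pooled summit. There, replicate 1 had 13.7 in a coding exon and replicate 2 had 20.7 at the 3' end, where dylt-3 overlaps. Which of the genes the peak belongs to cannot be told from its position.

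apr-1, whose product is the APC protein of the destruction complex (chromosome I, 8050037 to 8055475, plus strand), had its strongest peak at the 3' end. The pooled signal there was 40.9 (rank 6580), with 16.5 in replicate 1 and 21.4 in replicate 2, in the 3' UTR 5321 bp after the start. The gene overlaps the end of its converging neighbour K04G2.9 by 17 bp. The other pooled summit, 23.9 in a coding exon, had a summit in replicate 1 (12.2) but none within 200 bp in replicate 2.

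Of bar-1, wrm-1 and sys-1, the last had the strongest upstream peak. sys-1, whose product joins POP-1 as co-activator (chromosome I, 9980063 to 9984794, minus strand), had a pooled signal of 58.8 (rank 2692) 275 bp before its start, with 20 in replicate 1 and 38.5 in replicate 2. Both replicates thus placed a peak upstream of the annotated sys-1 start, 18 and 34 bp from the pooled summit. The sys-1 body held 2 pooled summits in coding exons, of 25.1 and 19.6. The first had a summit within 200 bp in replicate 2 only (14.3), and the second had none in either replicate. A reproducible peak of 103.4 lay 182 bp beyond the 3' end of sys-1, outside the window and 219 bp from the start of eif-3.C, a translation initiation factor gene.

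bar-1 codes for the beta-catenin of the canonical branch, known for vulval and neuroblast fates (chromosome X, 7166005 to 7170625, minus strand), and its strongest pooled peak was the lowest such value of the 10 genes, close to that of egl-20 (29.2). The summit at the gene start (-6 bp) had a pooled signal of 29.0 (rank 14320) and 21.7 in replicate 2, and replicate 1 had no summit anywhere in the window. The other pooled summit, 22.7 at -343 bp, lay at the ncRNA genes F43E12.4 and F43E12.5 and was in neither replicate list.

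wrm-1, whose product brings LIT-1 to POP-1 (chromosome III, 5722850 to 5727115, plus strand), had a single pooled summit of 44.3 (rank 5388), 1989 bp before the gene. Replicate 1 had 16.2 at 185 bp from it, and replicate 2 had 29.9 at 63 bp, just outside the window. Near the wrm-1 start itself there was only a replicate 2 summit of 14.9 (-288 bp, rank 22229). The pooled summit would not have counted with a window of 1000 bp.

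pop-1 codes for the single TCF of the worm (chromosome I, 2822243 to 2830311, minus strand) and had the strongest peak of the 10 genes. Its signal was 103.0 in the pooled reads (rank 887), 39.8 in replicate 1 (rank 1309) and 66.3 in replicate 2 (rank 731). The pooled summit lay 1274 bp upstream, within 200 bp of the ncRNA genes W10C8.8 and W10C8.12. The replicate 1 summit lay 202 bp from that of replicate 2, and the 2 replicate peaks overlapped by 238 bp. The pooled list had a further summit of 48.9 at -1473 bp, 2 bp from the replicate 1 summit. Near the start of pop-1 only replicate 2 had a summit (13.8 at -38 bp), and no pooled summit lay in the gene body, where replicate 1 had one of 12.3.

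lit-1, the gene of a Nemo-like kinase that phosphorylates POP-1 with WRM-1 (chromosome III, 13701991 to 13724404, plus strand), had 16 pooled summits in a window of 24414 bp, of which 2 were reproducible. Ensembl lists 7 transcripts, whose starts are spread over 17405 bp. The stronger reproducible summit lay 31 bp after the start of the last of them, W06F12.1c.1, in its 5' UTR and 17436 bp from the start of the gene. Its signal was 97.8 (rank 964), with 53.6 in replicate 1 (rank 681) and 47.5 in replicate 2 (rank 1449), and both replicate summits lay within 1 bp of it. The peak therefore sat on an inner transcript start, while the outermost start of lit-1 had no pooled summit nearer than 875 bp (23.1, found in replicate 2 only).

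The second reproducible summit of lit-1 lay 1921 bp after that inner start, in an intron, 129 bp from the ncRNA gene W06F12.7. It had a pooled signal of 83.1 (rank 1322), 30.8 in replicate 1 (rank 2371) and 55.7 in replicate 2 (rank 1066), so replicate 2 was the higher one here. In a window of 50 bases to each side of this summit 78.2% were G or C. Only 2 of 29979 nuclear pooled summits, this one among them, had a share as high. The next peaks of the gene had 60.7 (31.2 in replicate 1 and 26.2 in replicate 2), 787 bp before the start of transcript W06F12.1a.1, and 53.0 (19.4 and 34.2), 4808 bp before it. The reproducible list ended at 79.4. Of the 10 genes, lin-44 (81.3) and lit-1 (83.1) lay just inside, and lit-1 (60.7) and sys-1 (58.8) were the next below.

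**Figure D2:**
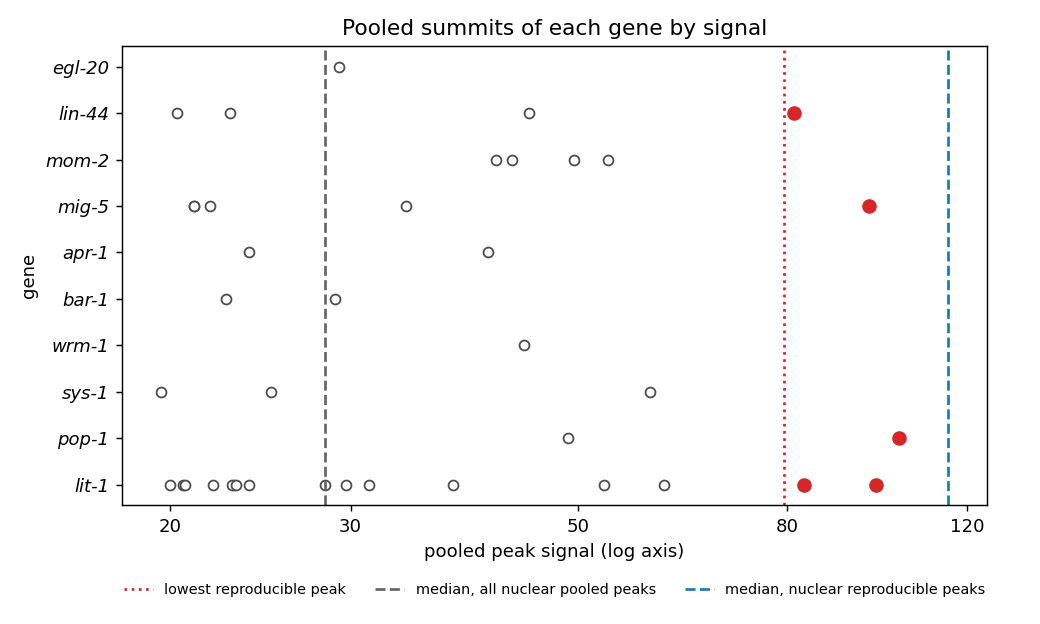
Pooled signal of every summit (horizontal log axis) for each of the 10 genes (rows), filled red where the peak is in the reproducible list and open where it is below it. The 5 red points lie between 81.3 and 103.0, right of the lowest reproducible peak (79.4, dotted) and left of the nuclear reproducible median (114.9, blue dashes), and the median of all nuclear pooled peaks is 28.3 (grey dashes).

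Over all 10 genes the pooled list held 40 summits, of which 5 were reproducible, and merging overlapping peaks left 28 regions. Over the whole nuclear pooled list, merging turned 29979 peaks into 25068 regions. Relative to the gene whose window held them, 14 of the 40 summits lay upstream and 13 in introns (12 of them in lit-1). A further 6 lay in coding exons, 5 in 3' UTR exons and 2 in 5' UTR exons, both at lit-1. The upstream ones include those of mig-5 inside cct-1 and that of egl-20 inside catp-6. The 5 reproducible summits took 4 kinds of place: upstream at mig-5 and pop-1, a 5' UTR and an intron at lit-1, and a 3' UTR at lin-44. None of the 40 lay within 200 bp of a short RNA gene (tRNA, snoRNA, snRNA, miRNA or rRNA). Of the 1411 nuclear reproducible summits, 862 lay away from such genes. Among the 40, the 2 at pop-1, the reproducible intron summit of lit-1 and 1 at bar-1 lay within 200 bp of an ncRNA gene. The shares of all pooled summits in each kind of place, at short RNA genes or at ncRNA genes were not computed. These counts therefore describe the 40 summits only.

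The replicates placed summits near each other at 7 of the 10 genes. A replicate 1 and a replicate 2 summit within 200 bp of each other were found in the windows of lit-1, mig-5, sys-1, apr-1, egl-20, lin-44 and mom-2, and in 37.7% of all protein-coding genes. That share rose with window length. It was 39.2% for windows of 4000 to 6000 bp, 49.6% for 6000 to 8000 bp and 56.3% for 8000 to 12000 bp. For windows of 20000 bp or more, the class of lit-1, it was 79.1%. They were not found at pop-1, where the distance was 202 bp, at wrm-1 or at bar-1. Of the 40 pooled summits, 17 (42.5%) had a summit of both replicates within 200 bp, 19 had one of a single replicate and 4 had none. Over all nuclear pooled summits both replicates were present at 38.2%. A pair of neighbouring pooled summits could share a replicate peak, as 53.0 and 22.0 of lit-1 shared 34.2 in replicate 2.

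Replicate 1 was the higher replicate at 3 of the 4 reproducible summits that had both: lit-1 (53.6 against 47.5), mig-5 (55.9 against 44.0) and lin-44 (39.6 against 38.4). In the whole nuclear reproducible list, replicate 1 was higher at 274 of 1404 summits (19.5%), and away from short RNA genes at 236 of 856 (27.6%). The 4 summits of these genes ranked 964 to 1373 of 1432, in the weaker part of that list. Among every 10th pooled summit, replicate 1 was more often higher in that part than among the strongest peaks. The share for peaks of those ranks alone was not computed. Of the 17 summits of the 10 genes with both replicates, replicate 1 was higher at 5, and the median ratio of replicate 1 to replicate 2 was 0.61. Over all 11440 nuclear pooled summits with both, replicate 1 was higher at 32.9%, with a median ratio of 0.84. With 4 summits, no test of this balance was made.

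**Figure D3:**
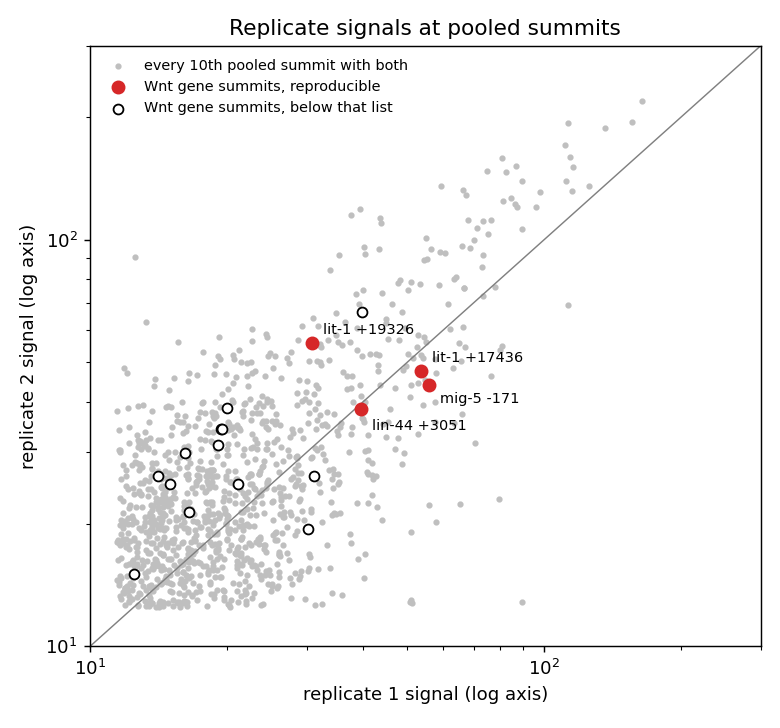
Signal in replicate 1 (horizontal log axis) and replicate 2 (vertical log axis) at pooled summits with a summit of both replicates within 200 bp, red for reproducible and open for weaker summits of the 10 genes, over every 10th summit of the whole pooled list in grey, with a line of equal signal. lit-1 +17436, mig-5 and lin-44 lie below the line and lit-1 +19326 above it; pop-1 has no red point, because its replicate 1 summit lay just over 200 bp from the pooled one.

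All 10 genes had at least 1 pooled summit, as did 64.2% of all protein-coding genes, so a pooled summit alone says little about a gene. Long windows hold more summits, and the windows of the 10 genes were longer (median 6444 bp) than those of all genes (4027 bp). Per 10 kb of window there were 4.95 pooled and 0.618 reproducible summits at the 10 genes (4.25 and 0.531 without lit-1), against 3.39 and 0.151 at all genes. These densities count summits before overlapping peaks were merged, and merging removed a larger part of the pooled peaks at the 10 genes than over all. Among windows of 4000 to 6000 bp, mig-5 and lin-44 had a reproducible summit and egl-20 and mom-2 had none, against 6.70% of 5715 genes. Of bar-1, wrm-1, sys-1 and apr-1 none had one, against 10.1% of 2007 genes with windows of 6000 to 8000 bp. pop-1 belongs to a class of 8000 to 12000 bp, where the share was 11.5%, and lit-1 to the 263 genes with windows of 20000 bp or more, where it was 18.6%. The median number of pooled summits in those longest windows was 7, against 16 at lit-1, whose peaks merged into 12 regions. The median was not taken after merging.

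A longer list held 23 further genes of the pathway, and their share was smaller. Both lists were chosen with earlier results of these data known, so the 2 shares describe the listed genes and are no measure of the pathway. Reproducible summits lay in the windows of 2 of these 23 (8.70%, against 6.88% of all protein-coding genes): mom-1, which codes for the Porcupine enzyme that lipidates Wnt ligands, and hmp-2, the beta-catenin of adherens junctions. The 2 reproducible peaks of mom-1 were stronger than any of the 10 genes. The first had 327.9 (119.2 in replicate 1, 206.3 in replicate 2) at the tRNA gene T07H6.t2, and the second had 205.3 (86.3 and 122.3) in an intron. The nearest protein-coding starts were those of lev-9 and cest-16, not that of mom-1. That of hmp-2 had 103.3 (46.1 and 56.1), 1400 bp upstream and nearest to the start of K05C4.7. Below the reproducible list followed vps-35, a retromer gene (63.1), the kinase gene gsk-3 (58.0), the Ror receptor gene cam-1 (55.4) and the casein kinase gene kin-19 (52.4). Here too the nearest protein-coding start was often another gene's: cgt-3 for vps-35, Y18D10A.4 for gsk-3 and C01G6.9 for cam-1. Only the kin-19 summit was nearest to its own gene's start. The Frizzled genes lin-17 (33.6, nearest to the start of dnj-30), mig-1 (32.9), cfz-2 (37.9) and mom-5 (39.7) had weaker peaks. The ligand genes cwn-1 and cwn-2 and the sorting receptor gene mig-14 had no pooled summit. With the 10 genes included, 6 of 33 (18.2%) had a reproducible summit.

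**Figure D4:**
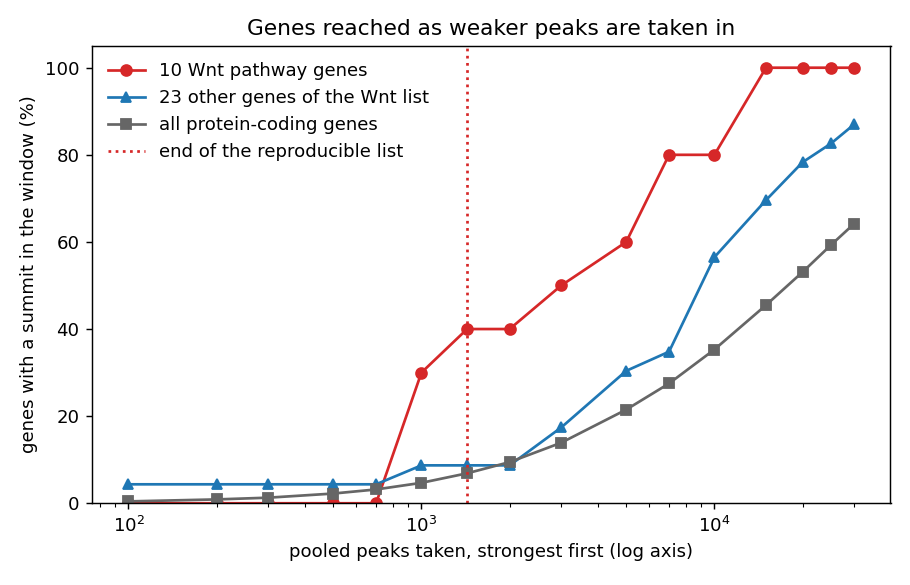
Share of genes with a summit in the window (vertical axis, %) as pooled peaks are taken in from the strongest on (horizontal log axis). Lines show the 10 genes, 23 other listed genes of the pathway and all protein-coding genes, with the end of the reproducible list dotted. At that line 4 of the 10 genes, 2 of the 23 and 6.88% of all genes are reached. The 700 strongest peaks reach none of the 10 genes and 3.17% of all genes. By 15000 all 10 are reached, against 45.5% of all genes.

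Matches to 4 motifs were counted under the 40 summits. The TCF core was found in 0 of the 40 summit windows (50 bases to each side), against 1.54% of all nuclear pooled summits, and the B box also in 0 of 40, against 0.467%. TGATAAG was found in 2 of 40 (5.00%), at mom-2 (53.5) and pop-1 (48.9), against 1.61%. GAGAGA was found in 5 of 40 (12.5%), against 9.60% of all pooled summits. Those 5 were at pop-1 (103.0), sys-1 (58.8), mig-5 (34.0) and lit-1 (60.7 and 28.3). The share of G and C had a median of 42.6% under the 40 summits, against 41.6% under all of them. It was 28.7% at the reproducible summit of lin-44, 44.6% and 78.2% at those of lit-1, 50.5% at mig-5 and 57.4% at pop-1.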

How the data were processed

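The deposited peak lists of the authors on ce11 were used: a reproducible list of 1432 peaks (optimal IDR), a pooled relaxed list of 30000, and relaxed lists of 23789 for replicate 1 and 29268 for replicate 2. Per the deposited listing of files, the relaxed lists were derived from alignments and a control, which was not analysed here. The peak caller, aligner, IDR threshold and read depths are not given in any source used here. Signal, in the deposited lists, is a value computed by the authors, of a scale not stated, and was taken as it stands. The −log10 q-value column of the deposited lists was read but not used for ranking, because it had a single value of 2.414 over the reproducible list. The reproducible list was the head of the pooled list by signal. Summits were start plus offset, written from base 1.

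Gene models were Ensembl 115 on WBcel235, with names from RefSeq where Ensembl had none. All 10 genes matched. Sequences came from the RefSeq genome of the same assembly. A summit counted for every gene whose window held it. Replicate summits within 200 bp of each other agreed. Shares over all protein-coding genes are given beside counts, and no test was made, because there was 1 group. The listed 10 genes, the 33 genes of the longer list and the motifs were chosen with earlier results of these data known. All 10 genes are named, and of the other 23 those with a reproducible summit and the next 4 by signal. The Frizzled genes and genes without a summit were named after their values were seen. Window counting was tested on simulated data. Python 3.11.15 was used, with pandas 2.3.3, numpy 2.4.6 and, for plots, matplotlib 3.10.9.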

Additional observations from a re-analysis of the deposited data

How the results depend on the processing

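No paired analysis was possible because the data held 1 group. The reproducible count (4 of 10, 6.88% of all genes) was 3 with 1000 bp (5.35%) or 500 bp (4.52%) upstream, where pop-1 was lost. With gene bodies only it was 2 (2.75% of all genes), where mig-5 was lost as well. It was 0 in the stronger 50% of the list by signal (3.24%). Leaving out a replicate gave 2 to 4 (6.77% to 6.95%), and with replicate 2 alone mig-5 and lin-44 were lost. Counting any overlap gave 5 (8.01% of all genes), through the peak beside sys-1. Leaving out summits at short RNA genes gave 4 (4.79%), and counting the nearest start only also gave 4 (4.5%). Leaving out summits at any RNA gene, an alternative chosen after seeing the data, gave 3 (4.14%). The pooled count (10 of 10, 64.2% of all genes) was 5 with gene bodies only (47.1%), 7 with 1000 bp (58.5%) or 500 bp (54.6%) upstream, where pop-1, wrm-1 and egl-20 were lost, and 9 to 10 without a replicate (60.2% to 66.0%). The count with agreeing replicates (7 of 10, 37.7%) was 4 with gene bodies only (22.2%), and 6 to 8 over distances of 100 to 500 bp (31.7% to 42.7%), the widest of which added pop-1. At the strongest pooled summit the single replicates had 47.5 to 53.6 at lit-1 and 44.0 to 55.9 at mig-5, and the strongest lit-1 peak of replicate 2 was the intron one, 55.7. Pooled signal was close to the sum of both replicates (median ratio 0.99). Read depth is unknown, and a missing peak means only that no peak passed the list's lowest signal, 11.4 in replicate 1 and 12.5 in replicate 2.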

Other observations

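The intron peak of lit-1 at 19326 bp lay in the sequence richest in G and C of all 1411 nuclear reproducible summits, 78.2% within 50 bases to each side against a median of 48.5%. Its signal was 30.8 in replicate 1 and 55.7 in replicate 2. Whether reads can be placed uniquely at its repeated unit was not tested.

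pop-1 was 1 of 7 among the 1411 nuclear reproducible summits that lacked a summit of one replicate within 200 bp, the distance missing the limit by 1 bp.

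At egl-20 the replicate 1 peak had rank 1936 of 23789, while the pooled peak nearest to it had rank 14106 of 30000. The replicate 2 peak had rank 5875 of 29268.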
